A study of Rattus norvegicus with 9 samples.

Results

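Genes that neurons switch on with activity were followed in the cortex of newborn rats: the immediate early genes Fos, Fosb, Junb, Egr1, Egr2, Egr4, Arc, Npas4 and Nr4a1, and Bdnf. All probe sets that the platform annotation assigns to exactly 1 of these symbols were taken. That gave 13 of the 31042 probe sets left after the array's own control probe sets were set aside, for 9 of the 10 genes. Npas4 was named by no single-symbol probe set and was not analysed here.

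Cerebral cortex of Hsd:Sprague Dawley SD rats was taken on postnatal day 4 (PND4) and hybridised to Affymetrix GeneChip rat arrays, 1 pup per array, with 3 pups each at 0 ppm (control), 750 ppm and 2500 ppm of 4-methylimidazole (4-MeI), a small ring compound formed when foods brown. The parental rats ate the compound from before mating, exposure ran on through the generations, and each pup represented a separate F2b litter. All groups shared the strain, the breeding scheme and the dissection. The title names maternal seizures, but the labels do not tell which dams had them, nor the sex of the pups.

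Immediate early genes are transcribed within minutes of a rise in synaptic activity or growth factor signalling, without new protein synthesis. Calcium entry and kinase cascades act on factors already bound at their promoters, among them CREB at cyclic AMP response elements (CREs) and serum response factor at CArG boxes. Most of the products are transcription factors. Arc acts at the synapse, and BDNF is a secreted neurotrophin that signals through the TrkB receptor. In the cortex these transcripts serve as markers of recent activity, and they rise strongly after seizures.

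The stretch of 250 bases before the transcription start was read for the 8 members that RefSeq's promoter table (GRCr8) holds, in 13 windows, 6 of them for the alternative starts of Bdnf. Fos and Arc had no entry there and were not searched. Both strands were searched for the full CRE, TGACGTCA, for its half-site, TGACG, which lies within the full CRE, and for the CArG box. The full CRE was in 0 of the 13 windows, against 1.59% of 33469 rat windows of the same length. The half-site was in 6 windows of 6 members (Junb, Egr1, Egr2, Egr4, Nr4a1 and Bdnf), against 18.2% of all windows. The CArG box was in the windows of Egr1 and Egr2, against 501 of the 33469. Windows are shown for Egr2, which holds both elements, for Egr4, with half-sites starting 178 and 110 bases before the start, and for the Bdnf start that has a half-site, 35 bases before it. They lie at chr20:21054442-21054691 (minus strand), chr4:119607818-119608067 (minus strand) and chr3:116637608-116637857 (plus strand), each written 5′ to 3′ with the matches in capitals.
Egr2: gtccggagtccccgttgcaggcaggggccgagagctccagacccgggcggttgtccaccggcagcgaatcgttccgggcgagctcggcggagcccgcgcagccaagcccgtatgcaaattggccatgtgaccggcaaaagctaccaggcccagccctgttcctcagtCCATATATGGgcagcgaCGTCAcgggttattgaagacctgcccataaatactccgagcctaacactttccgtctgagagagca
Egr4: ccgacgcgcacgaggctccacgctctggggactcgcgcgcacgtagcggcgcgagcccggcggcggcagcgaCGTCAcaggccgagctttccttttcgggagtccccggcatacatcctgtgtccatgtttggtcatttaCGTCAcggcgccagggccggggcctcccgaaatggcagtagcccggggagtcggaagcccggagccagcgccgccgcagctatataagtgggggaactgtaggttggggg
Bdnf: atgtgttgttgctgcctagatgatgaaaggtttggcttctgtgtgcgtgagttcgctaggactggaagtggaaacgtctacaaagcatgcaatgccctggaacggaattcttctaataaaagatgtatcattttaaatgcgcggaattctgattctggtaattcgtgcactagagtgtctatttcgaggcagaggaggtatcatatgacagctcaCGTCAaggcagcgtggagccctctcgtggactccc
In Egr2 the CArG box starts 83 and the half-site 66 bases before the start, and in Egr1 elements start at the same distances. These matches are a description of letters, and factor binding was not measured.

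Values are log2 intensities, on which a step of 1 is a doubling, and each difference is the first-named group minus the second. They carry no detection call, and differences are compressed near background. Of the member probe sets, 9, for 8 genes, lay above the filter that left out the 30% of probe sets with the lowest means, a log2 mean under 6.35. Those 9 were tested between groups in the main fit. The other 4 were tested only in an alternative fit without the filter, where no member passed the adjusted threshold either. Of these 4, Fosb also entered the correlations with Fos. Array medians lay between 7.66 and 7.70. Above the filter were 11 cortical neuron markers, with Stmn2, a neuronal cytoskeleton protein, between 14.47 and 14.60 on all arrays. Tbr1, a deep-layer transcription factor, lay under the filter.

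No member passed the limma threshold, an adjusted p under 0.05, in any comparison. At 2500 ppm against control this was 0 of 9 member probe sets, where 0.686% of the 21729 probe sets tested passed. At an unadjusted p under 0.05, 3 of 9 members passed (Bdnf, Nr4a1 and one Egr4 probe set), against 16.0% of all. The arrays of both groups did not overlap for 4 of 9 members (Fos, Junb, Nr4a1 and Bdnf, each lower at 2500 ppm), against 23.3% of all. Of the members, 8 had a lower mean at 2500 ppm and 1 a higher mean, where 47.8% of all probe sets tested had a lower mean. Those 8 included small differences, such as Arc (-0.037) and Junb (-0.042), and the Egr4 probe sets differed in sign. The median log2 difference was -0.18, against 0.0070 over all probe sets.

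At 750 ppm against control, 0 of 9 members passed the adjusted threshold, where 0.00920% of all did. Bdnf and Nr4a1 passed unadjusted, 2 of 9, against 10.1% of all. Nr4a1 alone had non-overlapping arrays, 1 of 9, against 14.2% of all. The median difference was -0.0067, against 0.0023 over all probe sets, with 4 members higher and 5 lower, where 49.1% of all were lower. At 2500 ppm against 750 ppm, 0 of 9 passed adjusted, where 0.322% of all did. Bdnf and one Egr4 probe set passed unadjusted, 2 of 9, against 12.6% of all, and Junb and Bdnf did not overlap, 2 of 9, against 17.4%. The median difference was -0.095, against -0.0063 over all probe sets, with 2 members higher and 7 lower, where 52.1% of all were lower. The 3 comparisons share arrays, so their values are not independent of each other. Each p measures the spread between pups of different litters, and 3 arrays a group limit its precision. An exact permutation test of 3 against 3 cannot go below p = 0.10.

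**Figure D1:**
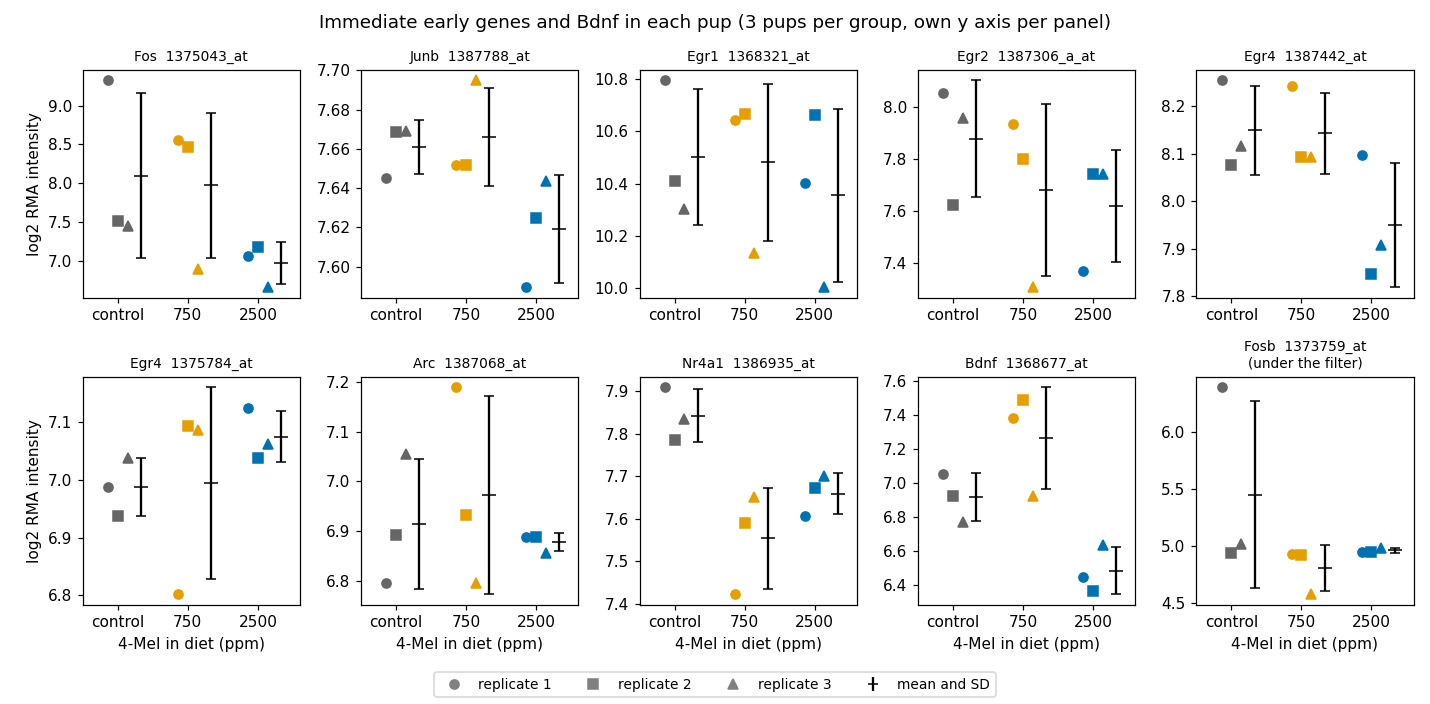
Log2 RMA intensity (y axis, a separate range per panel) of 10 member probe sets in each pup, by 4-MeI in the diet (x axis). Points are pups, shaped by replicate number, and bars are the mean and SD of 3 pups. The Fos panel runs between 6.66 and 9.33, whereas the Junb panel runs between 7.59 and 7.70.

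Fos encodes the partner of Jun proteins in the AP-1 transcription factor and had the largest spread between pups of the members tested. The gene lies at chr6:110852188-110855054 in GRCr8. Its probe set 1375043_at read 9.33, 7.51 and 7.45 in the controls, 8.56, 8.46 and 6.89 at 750 ppm, and 7.07, 7.17 and 6.66 at 2500 ppm. All 3 pups at 2500 ppm lay below all 3 controls, but 1 control pup stood far above the others, and 750 ppm replicate 3 lay among the 2500 ppm pups. The highest and lowest pups differed by 6.35-fold. The log2 difference between 2500 ppm and control was -1.13 ± 0.55 (SE; 95% interval -2.37 to 0.11), a fold of 0.457, with a limma adjusted p of 0.356. Without control replicate 1 the difference was -0.51 (limma adjusted p = 0.613), and with array weights it was -2.06 (limma adjusted p = 0.0306), a setting with 1495 calls over all probe sets against 149 without weights. Group means were 8.10 ± 1.07 in controls, 7.97 ± 0.94 at 750 ppm and 6.97 ± 0.27 at 2500 ppm (SD, n = 3 each). Between 750 ppm and control the log2 difference was -0.13 (limma adjusted p = 0.954), and between 2500 and 750 ppm the fold was 0.499 (limma adjusted p = 0.492). A second Fos probe set, 1371283_at, lay under the filter, with values between 5.57 and 6.14. Its log2 difference between 2500 ppm and control was 0.13, opposite in sign. It was highest in 2500 ppm replicate 3, the lowest pup of 1375043_at.

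Fosb, whose product also pairs with Jun proteins, lay under the filter. Its probe set 1373759_at read 6.39, 4.94 and 5.02 in the controls, 4.93, 4.92 and 4.57 at 750 ppm, and 4.95, 4.95 and 4.98 at 2500 ppm. The pup with the highest Fosb, control replicate 1, was also the pup with the highest Fos. The other 8 arrays lay between 4.57 and 5.02.

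Junb, the Jun family member in the set, was nearly the same in all pups. It read 7.65, 7.67 and 7.67 in the controls, 7.65, 7.65 and 7.70 at 750 ppm, and 7.59, 7.62 and 7.64 at 2500 ppm. The 2500 ppm pups were the lowest of the 9, by a narrow margin. The log2 difference between 2500 ppm and control was -0.042 ± 0.050 (SE; limma adjusted p = 0.716).

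The zinc finger transcription factors of the Egr family differed in how far pups lay apart. Egr1 read 10.80, 10.41 and 10.30 in the controls, 10.64, 10.67 and 10.14 at 750 ppm, and 10.40, 10.66 and 10.00 at 2500 ppm. The groups overlapped throughout, and replicate 3 was the lowest pup in each of them. The log2 difference between 2500 ppm and control was -0.15 ± 0.20 (SE; limma adjusted p = 0.759).

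Egr2, known for its role in myelination and hindbrain patterning, read 8.05, 7.62 and 7.96 in the controls, 7.94, 7.80 and 7.31 at 750 ppm, and 7.37, 7.74 and 7.74 at 2500 ppm. The lowest pups were 1 at 750 ppm and 1 at 2500 ppm, and the groups overlapped. The log2 difference between 2500 ppm and control was -0.26 ± 0.18 (SE; limma adjusted p = 0.511). A second Egr2 probe set, 1398266_a_at, lay under the filter, with values between 4.54 and 4.72. Its log2 difference between 2500 ppm and control was 0.065, opposite in sign.

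Both Egr4 probe sets were measured above the filter, and they differed in sign. Egr4 probe set 1387442_at read 8.26, 8.08 and 8.12 in the controls, 8.24, 8.09 and 8.09 at 750 ppm, and 8.10, 7.85 and 7.91 at 2500 ppm. At 2500 ppm, 2 pups were the lowest of all, and the third lay within the control range. Its log2 difference between 2500 ppm and control was -0.20 ± 0.084 (SE; limma adjusted p = 0.290). Egr4 probe set 1375784_at read between 6.80 and 7.12 over all pups, and its log2 difference between 2500 ppm and control was 0.087 ± 0.083 (SE; limma adjusted p = 0.641).

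Arc, which shapes synaptic strength by removing AMPA receptors from the surface, read 6.80, 6.89 and 7.05 in the controls, 7.19, 6.93 and 6.80 at 750 ppm, and 6.89, 6.89 and 6.86 at 2500 ppm. The groups overlapped in every comparison. The log2 difference between 2500 ppm and control was -0.037 ± 0.10 (SE; limma adjusted p = 0.887).

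Nr4a1, an orphan nuclear receptor, read 7.91, 7.78 and 7.83 in the controls, 7.42, 7.59 and 7.65 at 750 ppm, and 7.61, 7.67 and 7.70 at 2500 ppm. Every exposed pup lay below every control. The log2 difference between 750 ppm and control was -0.29 ± 0.072 (SE; limma adjusted p = 0.230). Between 2500 ppm and control it was -0.18 ± 0.072 (SE; limma adjusted p = 0.258), so the lower dose had the larger difference.

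Bdnf, at chr3:116619633-116670212 in GRCr8, did not follow the order of the doses. Its probe set 1368677_at read 7.05, 6.93 and 6.77 in the controls, 7.38, 7.49 and 6.93 at 750 ppm, and 6.45, 6.36 and 6.64 at 2500 ppm. All 2500 ppm pups lay below all other pups, while 2 of the 750 ppm pups lay above all controls and the third lay among them. Means were 6.92 ± 0.14 in controls, 7.27 ± 0.30 at 750 ppm and 6.48 ± 0.14 at 2500 ppm (SD, n = 3 each). Between 2500 and 750 ppm the log2 difference was -0.78 ± 0.14 (SE; 95% interval -1.11 to -0.46), a fold of 0.581, with a limma adjusted p of 0.0675. Without 750 ppm replicate 3 it was -0.95 and passed the threshold (limma adjusted p = 0.00386), and the calls over all probe sets were then 731, against 70 with all arrays. Between 2500 ppm and control it was -0.43 ± 0.14 (SE; limma adjusted p = 0.192), and between 750 ppm and control 0.35 ± 0.14 (SE; limma adjusted p = 0.466). A second Bdnf probe set, 1368678_at, lay under the filter, with a log2 difference between 2500 ppm and control of -0.0080.

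**Figure D2:**
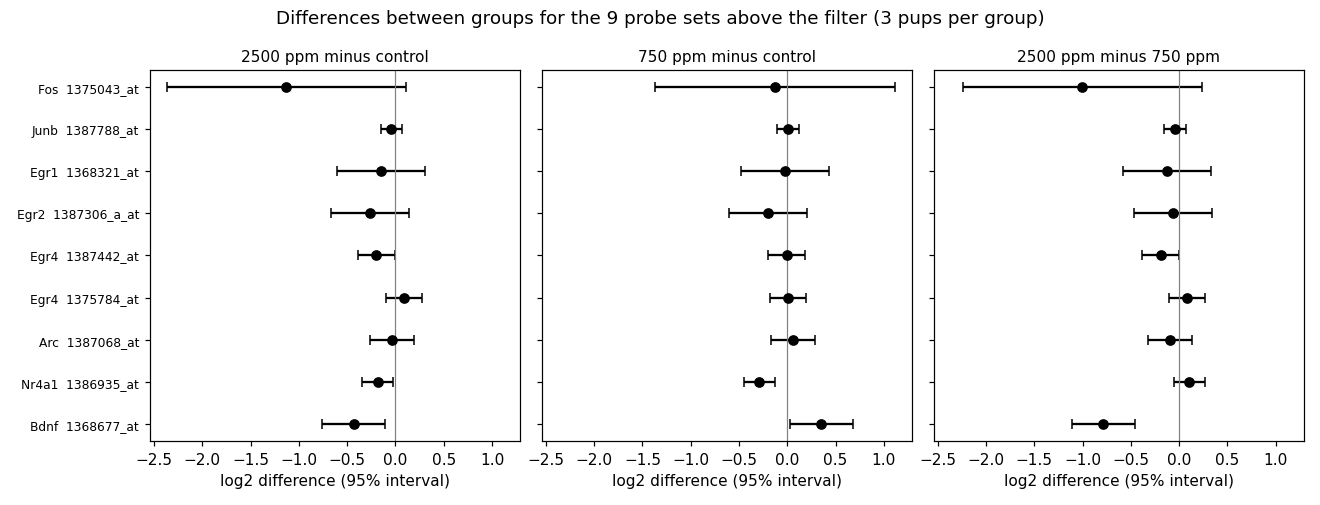
Log2 differences of the member probe sets above the filter for the 3 comparisons, each with its 95% interval from limma. The Bdnf interval between 2500 and 750 ppm, -1.11 to -0.46, lies below 0, and the Fos interval between 2500 ppm and control, -2.37 to 0.11, is the widest of that comparison.

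Spread between pups of 1 group differed widely among the members. The pooled within-group SD of Fos was 0.834, larger than that of 99.8% of the probe sets tested. Egr1 had 0.298 (larger than 96.7%), Egr2 0.263 (94.9%) and Bdnf 0.208 (89.5%). Junb had 0.0229, larger than only 0.483% of probe sets. The median was 0.138 over the 9 members and 0.108 over all probe sets tested.

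**Figure D3:**
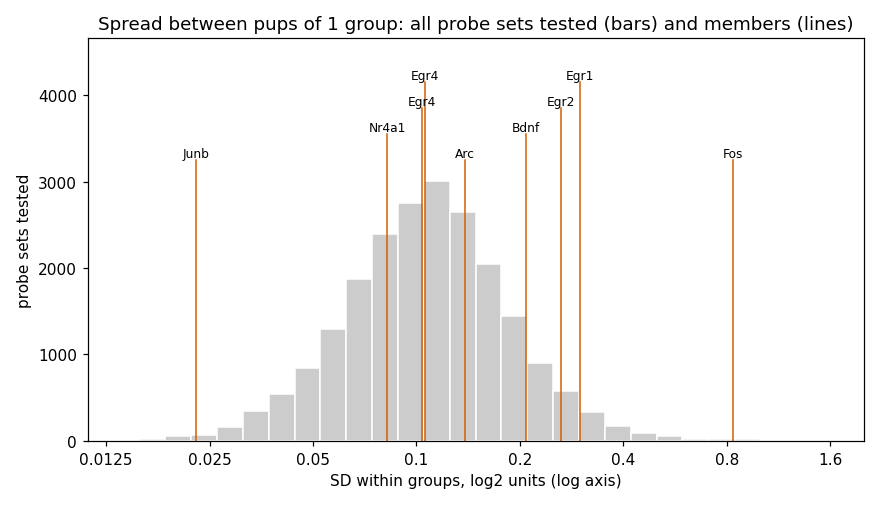
Histogram of the pooled within-group SD (x axis, log2 units, on a log axis) of the probe sets tested (y axis, number of probe sets), with the members marked. Fos lies at the upper end, at 0.834, and Junb at the lower end, at 0.0229.

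Whether pups with high Fos also had high values of the other members was examined over all 9 arrays, with exact two-sided permutation tests of 8 relations and Benjamini-Hochberg adjustment. No relation passed after adjustment. Egr1 followed Fos most closely (Pearson r = 0.82, exact p = 0.00726, adjusted p = 0.0581; Spearman rho = 0.83, exact p = 0.00827), and r was 0.72 without the 2 arrays farthest from the median of Fos, control replicate 1 and 750 ppm replicate 1. For Bdnf r was 0.71 (exact p = 0.0355, adjusted p = 0.0666, rho = 0.70). Without those arrays its r was 0.77 but its rho was 0.50. For Egr4 r was 0.73 (exact p = 0.0280, adjusted p = 0.0666; rho = 0.67) and 0.41 without them. For Egr2 r was 0.69 (exact p = 0.0413, adjusted p = 0.0666; rho = 0.71) and 0.42 without them. The Egr4 and Egr2 values rested in good part on those 2 pups. Fosb had r = 0.70 (exact p = 0.0416, adjusted p = 0.0666) but rho = 0.092, and r = 0.20 without them. Of those 2 pups only control replicate 1 was high in Fosb, at 6.39. The other, 750 ppm replicate 1, read 4.93, within the range of the remaining arrays. Leaving out either alone was not tested. Arc (r = 0.23), Nr4a1 (r = 0.077) and Junb (r = 0.038) had adjusted exact p-values of 0.748, 0.924 and 0.924. Without the 2 arrays, Arc had r = 0.48 (adjusted exact p = 0.601) and rho = 0.85, against a rho of 0.33 over all 9, Nr4a1 had r = -0.14 and Junb r = 0.097.

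**Figure D4:**
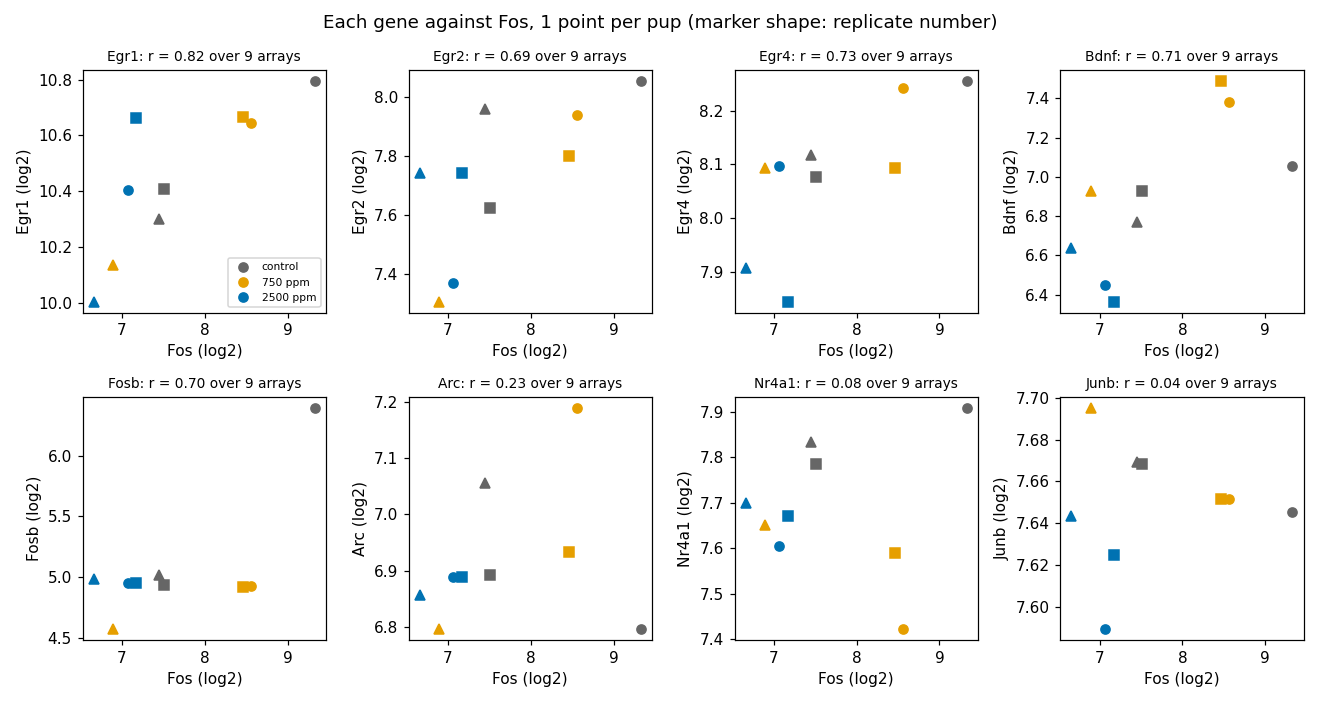
Log2 intensity of other members (y axis) against that of Fos (x axis) in each of the 9 pups, coloured by dose group. Egr1 and Bdnf are higher where Fos is higher (r = 0.82 and 0.71), and Junb shows little relation (r = 0.038).

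With each pup set against the mean of its own group, and pairings permuted only within groups (216 pairings), r with Fos was 0.86 for Egr1 (exact p = 0.00926, adjusted p = 0.0741), 0.70 for Bdnf (adjusted exact p = 0.213) and 0.86 for Fosb (adjusted exact p = 0.213). For Junb it was -0.74 (adjusted exact p = 0.111). None passed after adjustment.

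Striatal markers were lowest in the pups lowest in Fos, and hippocampal markers were clearly low only in 750 ppm replicate 3. Markers of other neighbouring tissue differed between groups in other ways. The mean of 13 striatal genes, relative to all arrays, was 0.70, 0.29 and 0.45 in the controls, 0.60, 0.52 and -0.91 at 750 ppm, and -0.99, -0.06 and -0.61 at 2500 ppm. The 4 arrays lowest in Fos were the 4 lowest in these genes, and Tac1, a striatal neuropeptide precursor, fell at 2500 ppm against control (log2 difference -1.10, limma adjusted p = 0.0185). All 13 striatal genes had a lower mean at 2500 ppm than in controls, with a median of -1.10, where 47.8% of all probe sets tested were lower. The mean of 6 hippocampal genes was 0.02, -0.01 and 0.05 in the controls and 0.15, 0.17 and -0.26 at 750 ppm. At 2500 ppm it was -0.06, -0.02 and -0.05. The same 4 arrays were the lowest in that mean, but control replicate 2 (-0.013) lay close above 2500 ppm replicate 2 (-0.018). At 2500 ppm against control, 3 of the hippocampal genes had higher and 3 lower means, with a median of 0.0087. The mean of 7 choroid plexus genes was above 0 in all 3 pups at 2500 ppm, highest in replicates 1 and 2 and 0.26 in replicate 3, and was -0.39, -0.23 and -0.51 at 750 ppm and -0.62, -0.74 and -0.64 in controls. Meningeal genes, 16 in number, averaged -0.17, -0.65 and -1.21 in control pups, 0.58, 0.41 and 0.34 at 750 ppm, and 0.01, 0.28 and 0.40 at 2500 ppm. The median meningeal difference was 1.24 at 750 ppm against control and 0.90 at 2500 ppm against control. This list was above 0 in every exposed pup and below 0 in every control pup. All 13 endothelial genes had higher means than in controls at both doses, with medians of 0.42 at 750 ppm and 0.34 at 2500 ppm. Of all probe sets tested, 49.1% were lower than in controls at 750 ppm and 47.8% at 2500 ppm. Of the other marker genes, Ttr, the choroid plexus carrier of thyroid hormone, Aldh1a2 and Fmod of the meningeal list, and Alas2 and Slc4a1 of red blood cells rose at 2500 ppm against control, and the cortical factor Emx1 rose at 2500 ppm against 750 ppm (limma adjusted p under 0.05). The part of these markers in the member values was not tested. In bulk tissue, fewer cells of a type and less RNA per cell cannot be told apart.

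**Figure D5:**
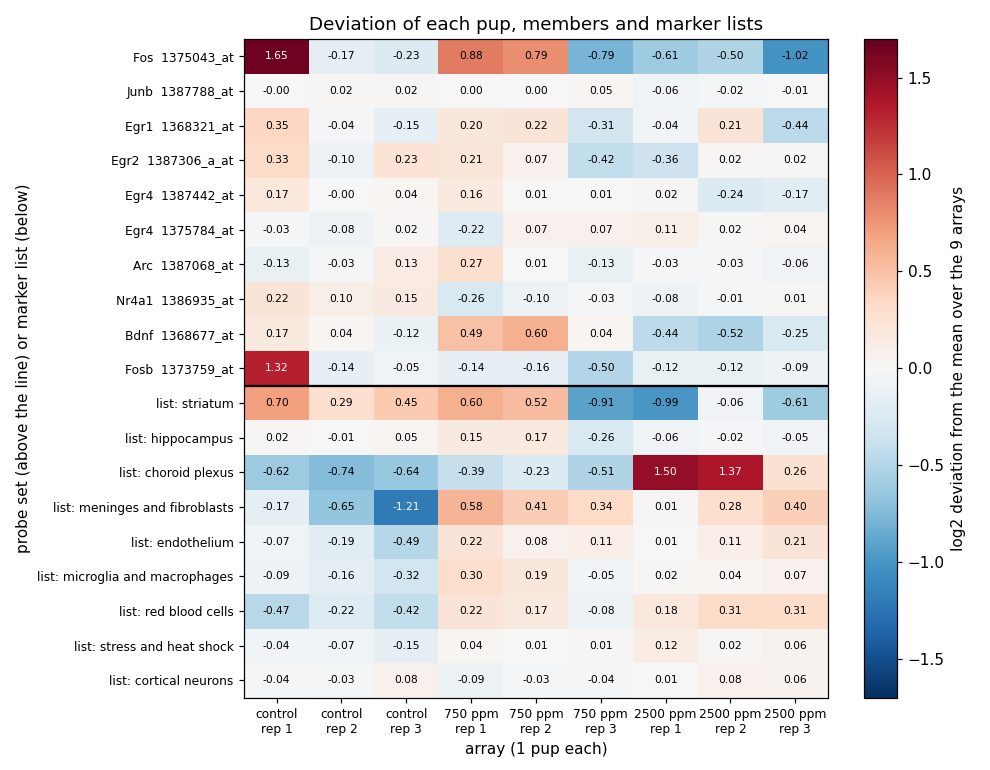
Deviation of each pup (columns) from the mean over the 9 arrays, in log2 units by colour and number, for member probe sets (upper rows) and the means of marker lists (lower rows). Fos and the striatal list are both below 0 in 750 ppm replicate 3 and in all 2500 ppm pups, the list by only -0.06 in replicate 2 at 2500 ppm. In control replicates 2 and 3, Fos is below 0 and the striatal list is above 0 (0.29 and 0.45).

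Other genes of the pathway were read from lists. Of 53 other activity-induced genes, 43 were above the filter. At 2500 ppm against control, 0 passed in limma, where 0.686% of all probe sets tested did. At an unadjusted p under 0.05, 8 passed, against 16.0% of all. Of the 43, 18 had higher and 25 lower means, where 47.8% of all probe sets were lower, and the median was -0.017. The smallest p-values were those of Sgk1, a kinase induced by stress hormones, at 0.45 (limma adjusted p = 0.0797), Rgs2, a brake on G protein signalling, at -0.60 (adjusted p = 0.140), Ccn2, a matrix protein, at 0.28 (adjusted p = 0.169), and Per1, a clock gene, at 0.20 (adjusted p = 0.182). Ccn2 rose at 2500 ppm against 750 ppm by 0.57 ± 0.089 (SE; limma adjusted p = 0.0398), with means of 10.24 ± 0.055 at 2500 ppm and 9.67 ± 0.15 at 750 ppm (SD, n = 3 each). It was the single call of this list in the 3 comparisons, and 0.322% of all probe sets passed at 2500 ppm against 750 ppm.

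Of 31 genes of upstream signalling, 28 were above the filter. At 2500 ppm against control, 0 passed in limma, where 0.686% of all probe sets tested did. Unadjusted, 6 passed, against 16.0% of all probe sets tested. The means of 10 were higher and of 18 lower, where 47.8% of all were lower, and the median was -0.038. Camk4, a calcium-activated kinase that phosphorylates CREB, had a difference of -0.43 (limma adjusted p = 0.0872). The kinases of the RSK and MSK families, Rps6ka2 at -0.30 (adjusted p = 0.133) and Rps6ka5 at -0.39 (adjusted p = 0.195), and Elk3, a partner of serum response factor, at 0.49 (adjusted p = 0.187), came next. Of 20 BDNF receptors, processing enzymes and relatives, 14 were above the filter and 0 passed, against the same 0.686% of all. Unadjusted, 2 passed, against the same 16.0% of all. The means of 8 were higher and of 6 lower, where 47.8% of all were lower, and the median was 0.012. Sorcs3, a sorting receptor, had -0.34 (adjusted p = 0.101) and Plat, the protease that starts plasmin formation, 0.34 (adjusted p = 0.137). Shc3, an adaptor of Trk receptors, had -0.14 (adjusted p = 0.396) and Pcsk5, a proprotein convertase, -0.12 (adjusted p = 0.449).

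The genes most like Fos in deviation from group means over 9 arrays were Ramp1 (r = 0.976), Pla2g6 (0.975), Src (0.966), Sparc (0.962), Taf6 (0.953) and Ppp3ca (0.951), followed by Fyb1 and Rap1gap. Those most like Bdnf were Rgs2 (r = 0.970, probe set 1368144_at), S1pr1 (0.970), Slc4a4 (0.969), Uqcrq (0.969), Depdc1 (0.966), Acsf2 (0.956), Ndufb3 (0.955) and Rasgrp1 (0.953). They are the best of many probe sets on few arrays and are given as a description.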

How the data were processed

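Per the submitters' processing notes, the authors processed the probe intensities with affy and RMA (robust multi-array average), with no versions named. The deposited values are log2 intensities, 1 per probe set and array. RMA quantile-normalizes arrays, which hides any overall shift in RNA content. The file held 31099 probe sets, of which 57 control probe sets were set aside. By the platform annotation, 20826 of the others had 1 symbol, 436 several and 9780 none.

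The 30% with the lowest means were left out (9313 probe sets), which left 21729. All 9 arrays entered 1 limma 3.58.1 model with a mean for each group (R 4.3.3, statmod 1.5.0), with Benjamini-Hochberg adjustment over all probe sets in each comparison. It was tested on simulated data. Correlations used exact permutation in Python 3.11.15 with scipy 1.17.1, and figures used matplotlib 3.10.9. Deviations from group means were permuted within groups, because such deviations sum to 0 in each group.

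The members and lists were chosen with earlier results of these data known. Named genes were all member probe sets, up to 4 genes per list with the smallest p at 2500 ppm against control, genes past the threshold in lists described, and the 8 most like Fos and Bdnf. Lists used the probe set with the highest mean per gene. Alternatives were other filters, normalizations, variance models, array weights, thresholds, a replicate block, fits of 2 groups, 1 probe set per gene and leaving out arrays. Replicate numbers were not treated as pairs in the main model, and the labels name no batch. Same-numbered deviations correlated between -0.209 and 0.312. Differently numbered pups were not compared in this way, so whether pups of the same number shared handling was not tested. Promoter windows come from RefSeq (GRCr8).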

Additional observations from a re-analysis of the deposited data

How the results depend on the processing

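With 3 pups a group, precision is limited and dim probe sets are compressed. Member calls at 2500 ppm against control were 0, and 4 with array weights (Bdnf, Fos, Egr4 and Nr4a1, limma adjusted p = 0.0160, 0.0306, 0.0396 and 0.0472) and 3 unadjusted. At 750 ppm against control they were 0, and 1 with array weights (Nr4a1, limma adjusted p = 0.0313) and 2 unadjusted. At 2500 ppm against 750 ppm they were 0, and 1 with array weights, 1 at an adjusted p under 0.1, 1 without control replicate 3 and 750 ppm replicate 3 together (chosen after seeing the data), and 2 unadjusted. Leaving out 1 array gave 0 to 1 calls there and 0 in the other comparisons. The call gained was Bdnf without 750 ppm replicate 3, and its limma adjusted p ranged between 0.00386 and 0.248 over arrays left out. With the replicate number as a block, Bdnf had a limma adjusted p of 0.106 and the block changed no member call.

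Calls over all probe sets, 149, 2 and 70, ranged over arrays left out between 9 and 466 at 2500 ppm against control, 0 and 48 at 750 ppm against control, and 13 and 731 at 2500 ppm against 750 ppm. With the block they were 122, 2 and 36. With array weights they were 1495, 340 and 721, and without both arrays 263, 71 and 1149, so the member calls gained under these settings came as calls rose over all probe sets.

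Signs changed for small differences. Arc at 2500 ppm against control was 0.058 with array weights and 0.033 without both arrays. At 750 ppm against control without both arrays, Fos was 0.091, Junb -0.0053, Egr1 0.053, Egr2 0.029, and Egr4 0.0020 (1387442_at) and -0.016 (1375784_at). There, Junb was -0.0061 median-centred and -0.0044 after a second quantile normalization, and Egr4 (1375784_at) was -0.0053 median-centred. Leaving out 1 array gave, at 2500 ppm against control, -0.30 to 0.030 for Egr1 and -0.096 to 0.033 for Arc. At 750 ppm against control it gave -0.45 to 0.49 for Fos, -0.0094 to 0.012 for Junb, -0.12 to 0.15 for Egr1, -0.057 to 0.046 and -0.044 to 0.10 for the Egr4 probe sets, and -0.050 to 0.15 for Arc. At 2500 ppm against 750 ppm it gave -0.30 to 0.049 for Egr1, -0.25 to 0.065 for Egr2, -0.015 to 0.13 for Egr4 (1375784_at) and -0.18 to 0.013 for Arc. The correlation with Fos was -0.74 for Junb and -0.14 for Nr4a1 on deviations from group means, and -0.14 for Nr4a1 without the 2 arrays farthest from the median of Fos. The cause was not tested.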
